A study of Mus musculus with 48 samples.

Results

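The translation initiation and elongation factors of mouse kidney were described over the day as 61 genes. They were the genes listed in both RNA-seq and RPF-seq (sequencing of ribosome-protected fragments, also called footprints) whose symbols begin with Eif1 to Eif6, Eef1 or Eef2, without Eif4ebp1 and Eif4ebp2, and whose median RPKM (reads scaled to the length of the coding sequence and to library size) was at least 0.5 in both assays. Of 63 matching symbols 61 passed, out of 11863 genes tested and 12423 genes listed in both assays. By the rule, 17 of them were 5′ TOP type (Eef1a1, Eef1b2, Eef1g, Eef2 and 13 subunits of eIF3) and 44 were not. The symbol rule also brought in genes that act on the factors, namely 5 kinases, 3 methyltransferases and 2 proteins that bind eIF4E.

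Initiation factors bring the small ribosomal subunit with its initiator tRNA to the capped end of an mRNA and let it scan to the start codon. Elongation factors then deliver aminoacyl-tRNAs (eEF1A, recharged by eEF1B) and move the ribosome along by a codon at a time (eEF2). Several of these mRNAs carry a 5′ terminal oligopyrimidine tract (5′ TOP), a cytidine at the cap followed by pyrimidines, which ties their translation to mTOR signalling and to feeding.

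The kidneys came from male C57BL/6JRj mice of 11-12 weeks, kept in a cycle of light and dark with lights-on at ZT00 (Zeitgeber time 0) and lights-off at ZT12. Kidneys were taken at 12 timepoints, every 2 h from ZT00 to ZT22. Per the paper, food and water were freely available and collection ran over 2 daily cycles. Each timepoint had 2 replicate pools of 2 mice, and each of the 24 pools gave 1 RNA-seq and 1 RPF-seq library. No group carried a genetic change or drug, and the liver of the same study was not analysed here.

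Whole reads behind the deposited values ran from 9456467 to 31336329 per library in RNA-seq and from 13865089 to 30221733 in RPF-seq, counted over coding sequences. Depth was greater in the light, with a median of 16886623 reads against 12590860 in the dark in RNA-seq. In RPF-seq the medians were 22710590 and 18086450. The deepest RNA-seq library was ZT12 replicate 1, and RPF-seq ZT04 replicate 2 listed 162 genes at 0 against a median of 1.5. Summed RNA of the proximal tubule markers Slc34a1, Lrp2 and Slc5a2 lay between 3693 and 4310 RPKM, while the hepatocyte markers Alb and Apoa2 summed to 16.1 to 39.0 RPKM and the skeletal muscle, brown fat and adrenal markers were not listed. The thick ascending limb markers Umod and Slc12a1 had a median sum of 2916 RPKM in the light and 3368 RPKM in the dark, and the red cell markers (3 haemoglobin genes) of 79.0 and 107 RPKM with a range from 47.1 to 338 RPKM. The part of cell composition in the results was not tested, and in such bulk samples fewer cells of a type and less RNA per cell cannot be told apart.

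Sequences near the annotated gene starts are shown for 4 of the 5 factors whose translation efficiency was rhythmic below, since the 5′ TOP is defined at the start. Each is 30 bases of RefSeq GRCm38.p6, given 5′ to 3′ on the gene's strand, and the capitals mark the longest run of pyrimidines led by a C within 50 bases before or after the annotated start.
Eef1a1 (chr9:78481708-78481737, minus strand): tggctccgCCCTCTTCCCgagggtggggga
Eef1b2 (chr1:63176851-63176880, plus strand): tgcgtccgagcgCTTTCgttcaactccggc
Eif3f (chr7:108934403-108934432, plus strand): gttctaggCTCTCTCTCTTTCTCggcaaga
Eif1 (chr11:100319969-100319998, plus strand): acaggcgccgCCCCTCCgccccagtcactg
The run of Eif3f had 15 bases and began 4 bases before the start, and 3.48% of 27025 genes with an entry held a run at least as long. The run of Eef1a1 had 10 bases and began 5 bases before the start (16.4% of genes). That of Eif1 had 7 bases (44.5%) and that of Eef1b2 had 5 bases (79.7%), and they began at bases 31 and 33 past the start, so that the letters printed for these 2 genes do not reach the start itself. Among the 13 members of 5′ TOP type with an entry the median run was 9 bases, against 7 bases in 36 other members and 6 bases in all genes. Annotated starts are not measured cap sites, so a run marks letters near the start and not a tract at the cap. Eef1g had no entry.

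Coding sequences of several factors also exist as near copies, which bears on how short reads were shared out. Of the 30-base windows of the coding sequence, 88.5% in Eef1a1, 95.2% in Eef1g, 99.0% in Eif1, 99.2% in Eif4a1 and all in Eif3j1 were also found in a GENCODE vM21 transcript of another gene, where these were pseudogenes for all but Eif3j1 and, in part, Eif1. The share was 28.5% in Eef2 and 24.6% in Eef1b2. It was 1.79% in the median member, and 21 members had no such window. How the authors assigned reads with several matches is not given in the sources used here, so levels of the first 5 genes are uncertain.

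Over the day, the mRNAs of the factors moved about as much as those of other genes. Curves of a 24-h cosine and sine were fitted to the 24 libraries of each assay, so that every p-value below rests on the spread between pools. A 24-h component of RNA abundance was called in 36 of 61 members (59.0%), against 48.6% of all genes tested (limma moderated F test, FDR under 0.05), but the fitted peak-to-trough fold reached 1.5 in only 3 of 61, Eif4ebp3, Eef2k and Eif1, against 10.2% of all genes. In footprints, 22 members (36.1%) had a 24-h component against 30.9% of all genes, and 5 reached 1.5-fold against 7.58%. These were Eef2k, Eef1a1, Eef2, Eef1b2 and Eef1g. The median fold was 1.19 in RNA and 1.17 in footprints, beside 1.2 and 1.18 for all genes.

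Translation efficiency (TE), taken as footprint RPKM divided by RNA RPKM in the same pool, had a 24-h component in 18 members (29.5%), against 17.1% of all genes. It was rhythmic, with at least 1.5-fold between peak and trough, in 5 members against 3.74% of all genes, namely Eef2, Eef1a1, Eef1b2, Eif3f and Eif1. Of the 18, 14 peaked in the dark phase, 13 of these between ZT14 and ZT20. Of the 2028 genes called in TE over all genes, 959 peaked in the dark phase and 693 between ZT14 and ZT20. By type, the call was made in 10 of 17 members of 5′ TOP type (58.8%), in 8 of 44 other members (18.2%) and in 15 of 82 ribosomal protein genes (18.3%). In footprints, a component was called in 41.2%, 34.1% and 62.2% of these groups (7, 15 and 51 genes), beside 30.9% of all genes. Their median TE folds were 1.21, 1.155 and 1.29, beside 1.19 in all genes. No test of these shares was made. Among the 18 members with a 24-h component in TE, 5 had one in footprints but not in RNA, 8 in RNA but not in footprints and 5 in both. These were 8.20%, 13.1% and 8.20% of the members, beside 2.86%, 8.19% and 4.21% of all genes. As TE is a ratio, an RNA curve over level footprints by itself gives a TE curve of opposite phase.

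With the 12 pools of either replicate alone, limma called 0 of 61 members in TE at FDR under 0.05, and 2 or 0 of all genes. At an unadjusted p under 0.05 there were 18 members in replicate 1 and 14 in replicate 2 (29.5% and 23%, beside 21.5% and 15.7% of all genes). The peak hours of the 18 members called with both replicates lay at most 3.2 h apart between the replicates. The joint call favours genes whose replicates share a phase, so this closeness is no independent check.

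**Figure D1:**
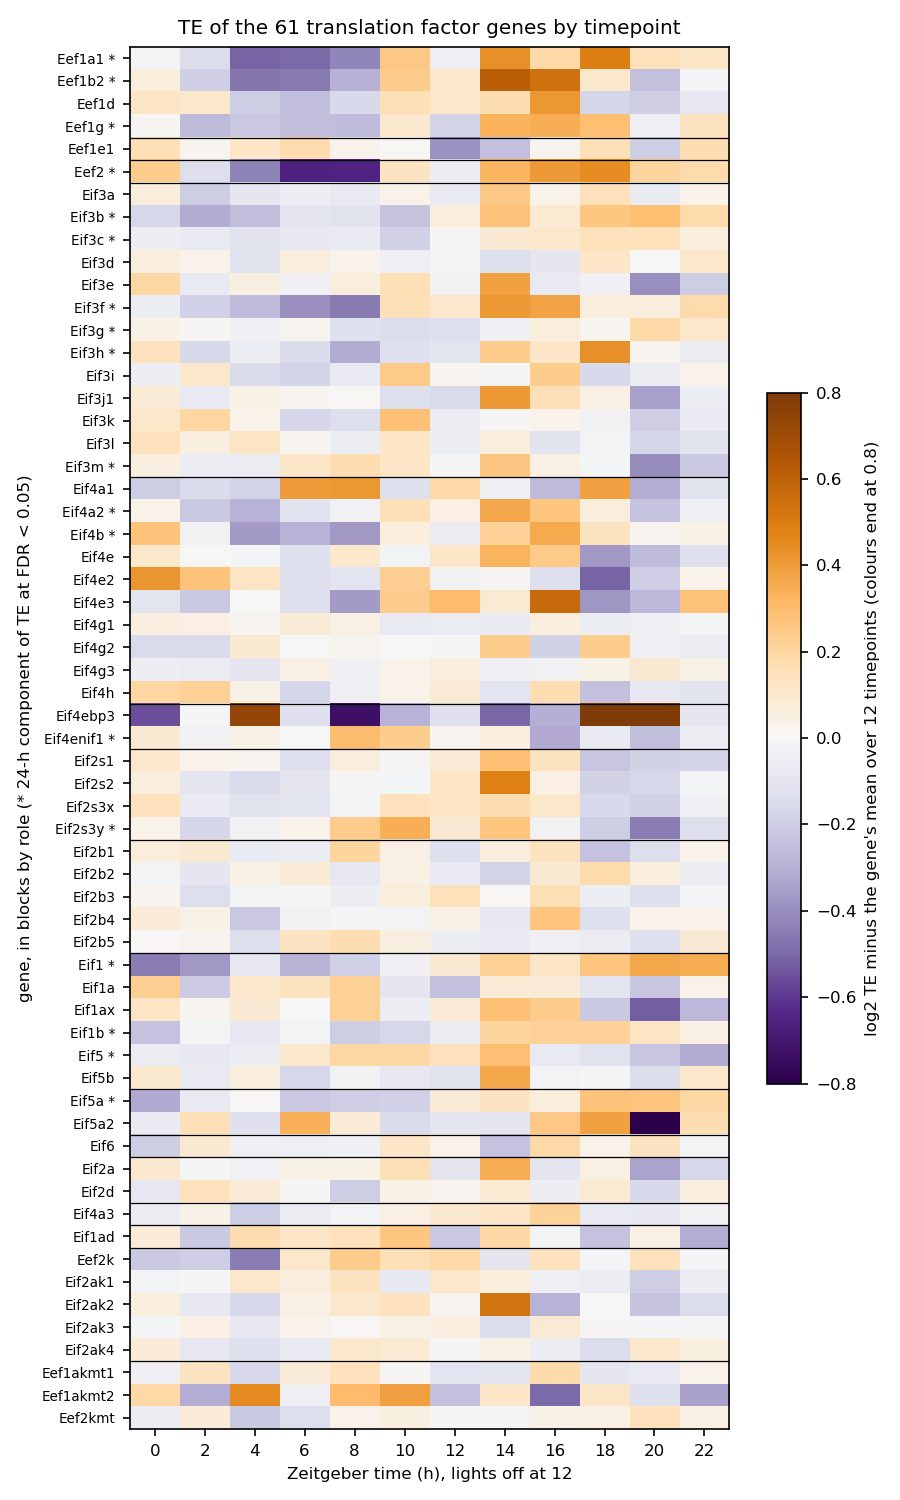
Mean TE of 2 pools for each of the 61 genes (vertical axis, blocks by role) at 12 timepoints (horizontal axis, Zeitgeber time in h), as log2 TE minus the gene's own mean over the day. Orange is higher and purple lower, and an asterisk marks the 18 genes with a 24-h component of TE at FDR under 0.05. The rows of Eef1a1, Eef1b2 and Eef2 are purple at ZT04 to ZT08 and orange at ZT14 to ZT16, and Eif4ebp3 exceeds the colour range.

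The elongation factors Eef2, Eef1a1 and Eef1b2 had the largest TE folds of the members called. Eef1a1 encodes eEF1A, which carries aminoacyl-tRNAs to the ribosome, and was the most abundant mRNA of the group. Its RNA ran from 1001 RPKM over a median of 1179 to 1317 RPKM in the 24 libraries, and its footprints from 202 over 427 to 622 RPKM. TE was lowest at 0.183 (ZT08 replicate 1), had a median of 0.360 and was highest at 0.554 (ZT18 replicate 2). RNA was thus nearly level, while footprints were low at ZT04 to ZT08. They were already raised at ZT10 (415 and 536 RPKM) and on average highest at ZT14 (566 RPKM). The fitted curve of footprints rose 1.88-fold from trough to peak (log2 0.91 ± 0.15, SE) with a peak at ZT17.3 (adjusted p = 0.000312, limma). That of TE rose 1.76-fold (log2 0.82 ± 0.17) with a peak at ZT17.1 (adjusted p = 0.00867), and that of RNA 1.07-fold (adjusted p = 0.341).

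Eef2 encodes eEF2, the translocase. Its RNA ran from 734 over 816 to 982 RPKM, its footprints from 258 over 481 to 625 RPKM and its TE from 0.263 over 0.616 to 0.803. RNA and footprints leaned to opposite phases, with the RNA highest at ZT08, where both footprints and TE were lowest in replicate 1. RNA peaked at ZT8.8 with 1.15-fold (adjusted p = 0.00967, limma), footprints at ZT17.4 with 1.77-fold (log2 0.82 ± 0.14, adjusted p = 0.000476). TE peaked at ZT18.1 with 1.95-fold (log2 0.97 ± 0.17, adjusted p = 0.00263), the largest fold of TE among the members called.

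Eef1b2, Eef1g and Eef1d are subunits of eEF1B, which returns eEF1A to its GTP-bound state. In Eef1b2, RNA ran from 262 over 324 to 403 RPKM, footprints from 105 over 153 to 228 RPKM and TE from 0.310 over 0.454 to 0.776. The pools of ZT14 and ZT16 held the highest TE, between 0.673 and 0.776, and at ZT20 it was back at 0.391 and 0.424. Its footprints rose 1.68-fold with a peak at ZT16.3 (adjusted p = 0.000630) and its TE 1.69-fold with a peak at ZT15.4 (adjusted p = 0.00759, limma), while the RNA had no called component (1.13-fold, adjusted p = 0.0870).

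In Eef1g, RNA ran from 170 over 213 to 237 RPKM, footprints from 81.6 over 133 to 171 RPKM and TE from 0.417 over 0.620 to 0.794. All 6 pools of ZT14 to ZT18 had a TE between 0.702 and 0.794, against at most 0.691 in the light phase. Footprints rose 1.55-fold (peak ZT18.5, adjusted p = 0.000667) and TE 1.47-fold (peak ZT16.9, adjusted p = 0.01, limma), short of the 1.5-fold limit. Eef1d, the subunit that is not on the 5′ TOP type list, had a footprint component of 1.24-fold (adjusted p = 0.00810) and none called in RNA (1.10-fold) or TE (1.19-fold, adjusted p = 0.311).

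**Figure D2:**
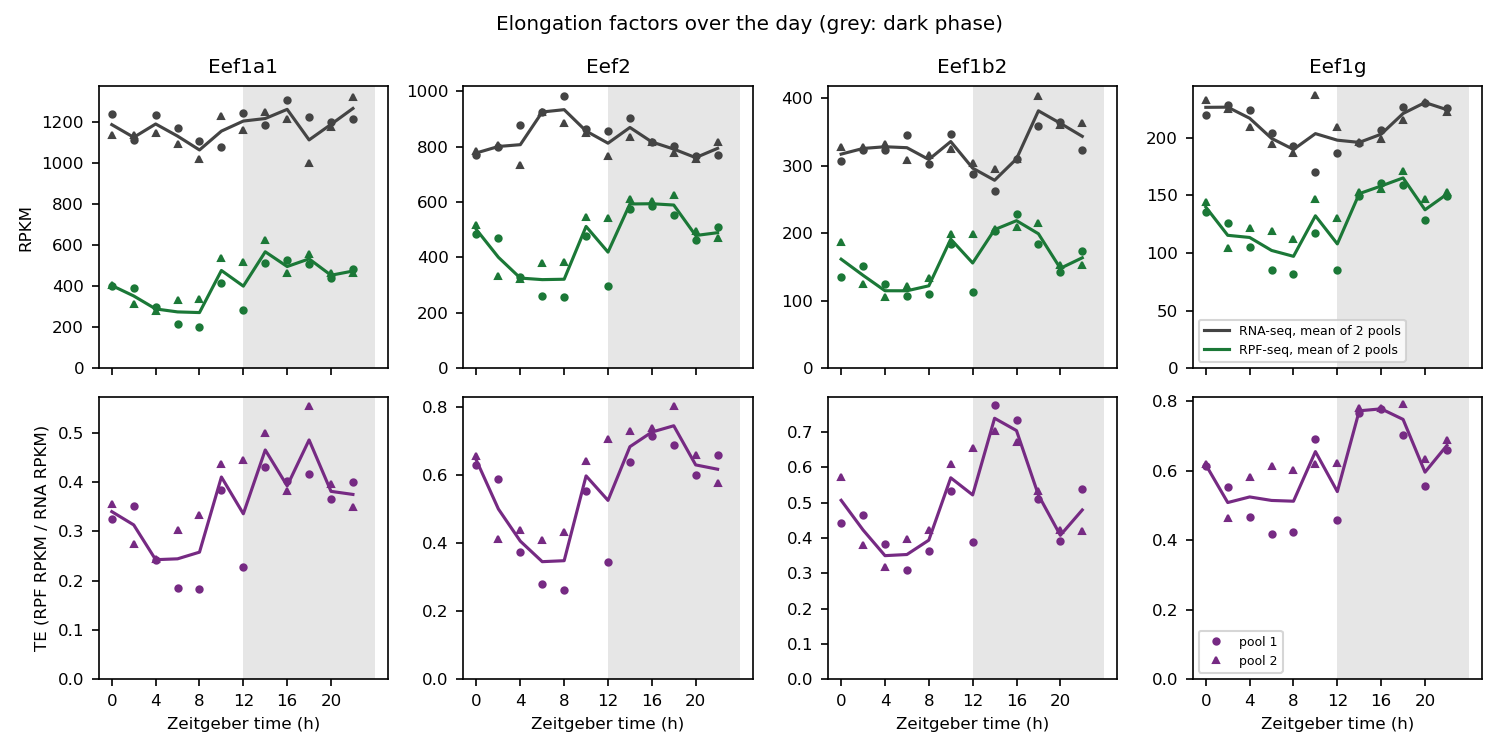
RNA-seq and RPF-seq levels in RPKM (upper row) and TE as their ratio (lower row) of 4 elongation factors against Zeitgeber time in h, with circles for pool 1, triangles for pool 2, lines for their mean and grey for the dark phase. Footprints and TE are low at ZT04 to ZT08 and high at ZT14 and ZT16, and the pools of ZT12 lie far apart.

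The replicates of ZT12 did not agree for these genes. TE in replicates 1 and 2 was 0.227 and 0.444 for Eef1a1, 0.345 and 0.707 for Eef2, 0.389 and 0.655 for Eef1b2 and 0.457 and 0.623 for Eef1g. Replicate 1 was also the lower at ZT06 and ZT08 for each of these genes. In RNA-seq, the clock gene Nr1d1 stood at 30.8 and 13.7 RPKM in these ZT12 pools and at 40.4 and 18.8 RPKM at ZT10. Dbp, a clock output gene, stood at 85.1 and 72.6 RPKM at ZT12. The clock genes Arntl and Per2 lay closer, at 0.936 and 1.06 RPKM and at 16.4 and 14.5 RPKM in the ZT12 pools. The part of sampling time in the difference was not tested. Without ZT12 replicate 1 the TE folds were 1.81 in Eef1a1, 1.96 in Eef2 and 1.77 in Eef1b2, with the calls kept.

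Taking the median over Eef1a1, Eef1b2, Eef1g and Eef2, log2 TE relative to the median gene of the pool was −1.48 at ZT06 and −0.42 at ZT14 (means of 2 pools). In between it stood at −0.72 at ZT10 and −0.95 at ZT12. It averaged −1.13 ± 0.35 in the light and −0.69 ± 0.30 in the dark (SD, n = 12 pools each), so that the phases overlapped. The median of 82 ribosomal protein genes, the best known class of 5′ TOP mRNAs, was lowest at ZT06 (−1.02) and highest at ZT14 (−0.51). At ZT10 it stood at −0.54. Over the light it averaged −0.81 ± 0.24 and over the dark −0.70 ± 0.20. The log2 RNA level of the 4 elongation factors varied between 8.94 and 9.10 over the timepoints, and their log2 footprint level between 7.45 and 8.40. These genes were picked by the rule and their values are given with no test.

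**Figure D3:**
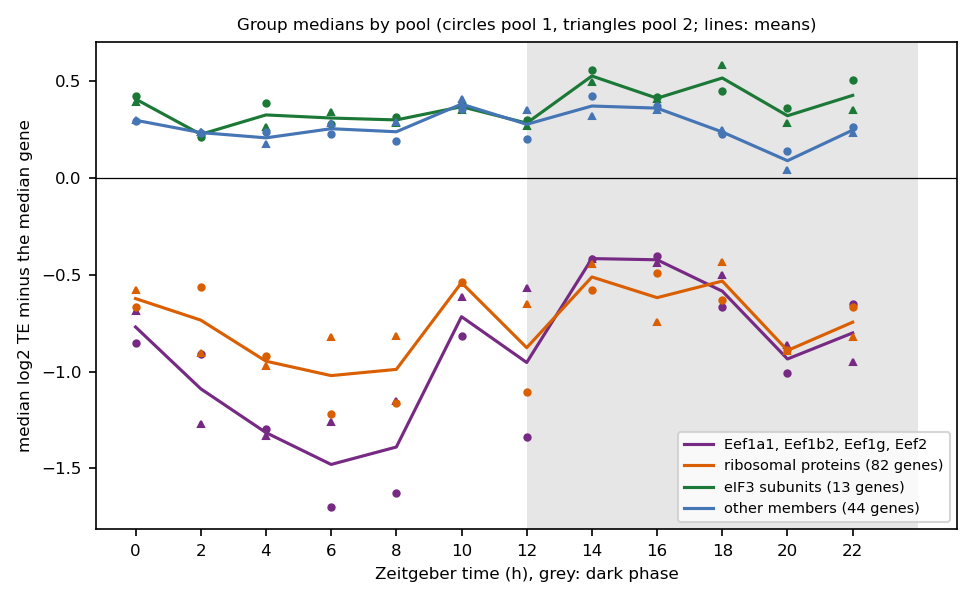
Median log2 TE of 4 gene groups minus that of the median gene in the same pool, against Zeitgeber time in h. Circles are pool 1, triangles pool 2, lines their means, grey the dark phase. The elongation factors fall from −0.77 at ZT00 to −1.48 at ZT06 and stand at −0.42 at ZT14, while the eIF3 subunits stay between 0.22 and 0.53.

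eIF3 is the scaffold that holds the initiation complex on the small subunit, and its 13 subunits were all counted as 5′ TOP type by the rule. They had a 24-h component in 8 cases in RNA, 3 in footprints and 6 in TE (61.5%, 23.1% and 46.2%), beside 48.6%, 30.9% and 17.1% of all genes. Of these subunits only Eif3f passed 1.5-fold, in TE. Eif3f, a subunit with an MPN domain, had RNA from 71.0 over 80.4 to 95.1 RPKM, footprints from 45.4 over 67.4 to 90.3 RPKM and TE from 0.500 over 0.795 to 1.15. TE was lowest at ZT06 replicate 1 and highest at ZT14 replicate 2, much as in the elongation factors, and ZT12 again gave 0.658 and 1.10. Its footprints rose 1.47-fold (peak ZT16.0, adjusted p = 0.00281) and its TE 1.56-fold (log2 0.64 ± 0.14, peak ZT16.6, adjusted p = 0.0101, limma), with RNA at 1.10-fold (adjusted p = 0.122). Eif3h, the other subunit with this domain, had TE from 1.01 over 1.31 to 2.03, a footprint component of 1.22-fold and a TE component of 1.33-fold with a peak at ZT18.1 (adjusted p = 0.0169), and after quantile normalisation its footprint call was lost (adjusted p = 0.0555, limma).

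In Eif3b and Eif3c, core subunits, a component was called in RNA and TE and not in footprints. Eif3b RNA ran from 43.4 over 58.3 to 75.8 RPKM, with 66.1 ± 5.42 RPKM in the light and 51.8 ± 3.91 RPKM in the dark (SD, n = 12 pools). Its footprints ran from 65.1 over 74.8 to 81.1 RPKM and its TE from 0.920 over 1.22 to 1.60. RNA peaked at ZT3.9 with 1.38-fold (adjusted p = 0.000113) and TE at ZT17.1 with 1.43-fold (log2 0.51 ± 0.09, adjusted p = 0.00292), whereas the footprint curve of 1.12-fold was not called (adjusted p = 0.0613, limma). Without ZT04 replicate 2 the footprints passed as well (1.12-fold, adjusted p = 0.0456). Eif3c did likewise on a smaller scale, with RNA at 1.19-fold (peak ZT7.5, adjusted p = 0.00143), footprints at 1.07-fold (adjusted p = 0.138) and TE at 1.2-fold (peak ZT18.1, adjusted p = 0.00641).

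The other eIF3 subunits divided between weak calls and none. TE of Eif3g had a component of 1.17-fold with a peak at ZT21.2 (adjusted p = 0.0312), and that of Eif3m 1.26-fold with a peak at ZT9.8 (adjusted p = 0.0255), the only eIF3 subunit called with a peak in the light phase. TE of Eif3a, Eif3d, Eif3e, Eif3i, Eif3j1, Eif3k and Eif3l was not called, with folds from 1.05 (Eif3k) to 1.21 (Eif3e). In RNA, Eif3e had the largest fold of these 7, with 1.30-fold and a peak at ZT18.8 (adjusted p = 0.00580, limma). Eif3i was called in RNA and footprints, at 1.2-fold and 1.26-fold with peaks at ZT18.4 and ZT17.0, and its TE curve spanned 1.10-fold. After quantile normalisation the RNA call of Eif3i was lost (adjusted p = 0.103, limma).

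Eif1 encodes eIF1, which keeps the scanning ribosome open until a proper start codon is met, and Eif1b encodes the paralogous protein eIF1B. Eif1 RNA ran from 154 over 206 to 343 RPKM, footprints from 380 over 479 to 600 RPKM and TE from 1.49 over 2.24 to 3.12. The RNA was highest at ZT00, with 338 and 343 RPKM, and stood at 239 and 233 RPKM at ZT06, and no pool from ZT12 on exceeded 212 RPKM. RNA peaked at ZT3.3 with 1.64-fold (log2 0.71 ± 0.13, adjusted p = 0.000329), footprints at ZT23.5 with 1.24-fold (adjusted p = 0.0111) and TE at ZT16.9 with 1.51-fold (adjusted p = 0.0129, limma). After quantile normalisation the TE fold was 1.48, under the limit of 1.5. Eif1b, with TE from 1.69 over 2.15 to 2.86, had no called RNA component (1.17-fold, adjusted p = 0.0808), a footprint component of 1.35-fold with a peak at ZT19.3 and a TE component of 1.26-fold with a peak at ZT17.3 (adjusted p = 0.0479, or 0.0608 without ZT12 replicate 1, limma).

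eIF2 brings the initiator tRNA and is the target of the stress kinases. Its gamma subunit is encoded on both sex chromosomes, and Eif2s3y, the Y-linked copy, had the third smallest adjusted p of TE among the members. Eif2s3y RNA ran from 30.1 over 38.0 to 47.8 RPKM, footprints from 35.5 over 45.6 to 55.1 RPKM and TE from 0.876 over 1.18 to 1.59. TE was on average highest at ZT10 and lowest at ZT20, and so peaked earlier than in the elongation factors. RNA peaked at ZT18.4 with 1.30-fold (adjusted p = 0.00178), footprints at ZT13.0 with 1.29-fold (adjusted p = 0.00154) and TE at ZT9.6 with 1.4-fold (adjusted p = 0.00400, limma). It was also the only member called in TE by a test of any shape over the 12 timepoints (adjusted p = 0.0387, 0.851% of all genes). Eif2s3x, the X-linked copy, had RNA between 80.5 and 112 RPKM with a component of 1.22-fold (peak ZT20.4), footprints of 1.18-fold (peak ZT18.0) and TE of 1.13-fold (adjusted p = 0.293). The RNA ratio of Eif2s3x to Eif2s3y was 2.44 in the median pool and the footprint ratio 2.32. Of the 30-base windows of Eif2s3x, 95% also occurred in another transcript, against 0.361% in Eif2s3y.

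A 24-h component in TE was called in 5 further members. Eif4b, a helicase cofactor, had a TE of 1.43-fold (peak ZT17.9, adjusted p = 0.0263), and Eif4a2, a helicase, of 1.34-fold (peak ZT14.1, adjusted p = 0.0140). Eif5a, the hypusine-carrying factor, had 1.33-fold (peak ZT17.9, adjusted p = 0.0233). Peaks in the light phase were found in Eif4enif1, the eIF4E transporter (1.27-fold, ZT7.3), and Eif5, the GTPase-activating protein of eIF2 (1.34-fold, ZT10.1), beside Eif2s3y and Eif3m. In Eif4enif1, Eif5, Eif3m, Eif4b and Eif5a, footprints were not called, and RNA peaked at ZT19.8, ZT22.7, ZT19.5, ZT9.1 and ZT6.2, respectively. The TE call of Eif4enif1 was lost after quantile normalisation (adjusted p = 0.0788) and that of Eif5 without ZT12 replicate 1 (adjusted p = 0.0727, limma). Among the 5 subunits of eIF2B, the exchange factor that recharges eIF2, no TE component was called, and RNA or footprints were called in 1 each (Eif2b1 and Eif2b3, up to 1.19-fold).

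Of the 5 kinases, Eef2k alone was rhythmic, in RNA and in footprints. It encodes the kinase that phosphorylates eEF2 and thereby slows elongation. Its RNA ran from 1.77 over 2.58 to 4.06 RPKM and its footprints from 0.804 over 1.68 to 2.91 RPKM, resting on 38 to 254 reads in RNA-seq and 34 to 181 reads in RPF-seq. Both were on average highest at ZT10 and ZT12, and the lowest footprint value came from ZT04 replicate 2, the library with 162 genes at 0. RNA rose 1.64-fold (log2 0.72 ± 0.12, peak ZT8.9, adjusted p = 0.000133) and footprints 1.89-fold (log2 0.92 ± 0.17, peak ZT10.2, adjusted p = 0.00108, limma), while its TE of 1.26-fold was not called (adjusted p = 0.273). The footprints of Eef2k thus peaked at ZT10.2 and those of Eef2 at ZT17.4.

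The 4 kinases of eIF2α are given one by one, as 4 genes are too few to set against shares. Over all genes, components were called in 48.6% in RNA, 30.9% in footprints and 17.1% in TE. Eif2ak1 (HRI) had RNA between 44.4 and 51.6 RPKM, Eif2ak2 (PKR) between 8.78 and 17.2 RPKM, Eif2ak3 (PERK) between 19.6 and 29.1 RPKM and Eif2ak4 (GCN2) between 4.99 and 6.71 RPKM. Only the RNA of Eif2ak3 (1.16-fold, peak ZT18.4, adjusted p = 0.0353) and of Eif2ak4 (1.17-fold, peak ZT4.1, adjusted p = 0.0201, limma) had a called component, lost without ZT04 replicate 2 in Eif2ak3 (adjusted p = 0.0506) and after quantile normalisation in Eif2ak4 (adjusted p = 0.164), and no kinase of eIF2α had one in footprints or TE.

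Eif4ebp3, a repressor that binds eIF4E, had the largest RNA fold of the members but few reads. Its RNA ran from 1.34 over 2.84 to 6.88 RPKM on 4 to 32 reads, and its footprints from 1.69 over 6.03 to 12.0 RPKM on 11 to 81 reads. RNA rose 2.29-fold with a peak at ZT11.8 (log2 1.2 ± 0.25, adjusted p = 0.00165, limma), and footprints (1.77-fold, adjusted p = 0.0654) and TE (1.69-fold, adjusted p = 0.259) were not called. Without ZT04 replicate 2 the footprints passed, with 1.91-fold (adjusted p = 0.0376). Its coding sequence shared 63.5% of its windows with 1 other gene.

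**Figure D4:**
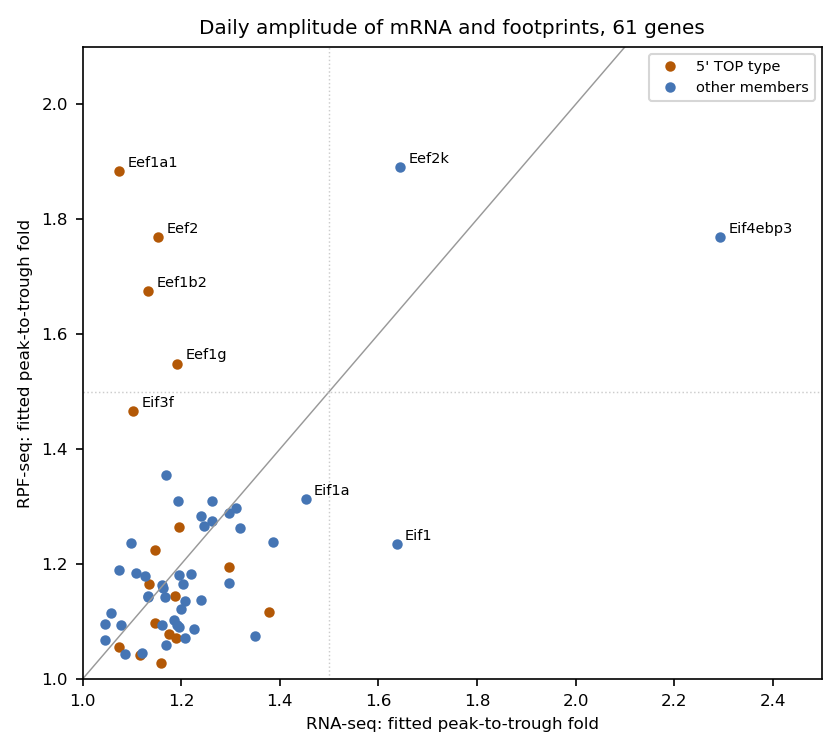
Fitted peak-to-trough fold in RNA-seq (horizontal) and in RPF-seq (vertical) for the 61 genes, with 5′ TOP type members in brown and the others in blue. Dotted lines mark 1.5-fold and the grey line equal folds. Eef1a1, Eef2, Eef1b2 and Eef1g lie high at the left, with RNA folds up to 1.19, and Eif4ebp3 and Eif1 lie to the right.

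The level of TE, averaged over the day, ranged between members from −1.69 to 1.55 on the log2 scale, while the fitted change over the day spanned at most 0.97 in any of them. Set against the median gene of each pool, 12 members were above by over 1.5-fold, against 15.8% of all genes, and 11 below, against 22.6% (limma treat, FDR under 0.05). Eif5a had the highest log2 TE, 1.55 ± 0.23 (SD, n = 24 pools), followed by Eif1 (1.22 ± 0.32), Eif1b (1.18 ± 0.20), Eif4ebp3 (1.10 ± 0.68) and Eif2b2, the beta subunit of eIF2B (0.96 ± 0.12). Each of these overlaps the next within its SD. The others above were Eif4h, Eif3j1, Eif2s1, Eif1a, Eif1ax, Eif2s2 and Eif4a3, from 0.89 to 0.68.

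At the low end, Eif4g2, a relative of eIF4G that lacks the eIF4E-binding part, had a log2 TE of −1.69 ± 0.16. It was followed by Eef1a1 (−1.48 ± 0.42), Eif4enif1 (−1.44 ± 0.19), Eif2ak4 (−1.30 ± 0.17) and Eif5 (−1.30 ± 0.25), and each of these also overlaps the next within its SD. Eif2d, Eif2ak3, Eif1ad, Eef1b2, Eef2 and Eif2b5 made up the rest, from −1.17 to −0.66. Eif5a2, the paralog of Eif5a with 27 to 114 RNA reads per library, stood at −0.23 ± 0.43 and was not called.

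Per length of coding sequence, the order of the members changed between the assays. Eef1a1 took 16.2% of the summed RNA RPKM of the 61 genes in the median pool (14% to 18.1%) but 6.27% of the footprints (3.48% to 8.24%). Eif5a took 4.89% of the RNA and 14.3% of the footprints. Eif4g2 took 7.03% and 2.19%. So the footprints of Eif5a outweighed those of Eef1a1, while its RNA was the lower.

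**Figure D5:**
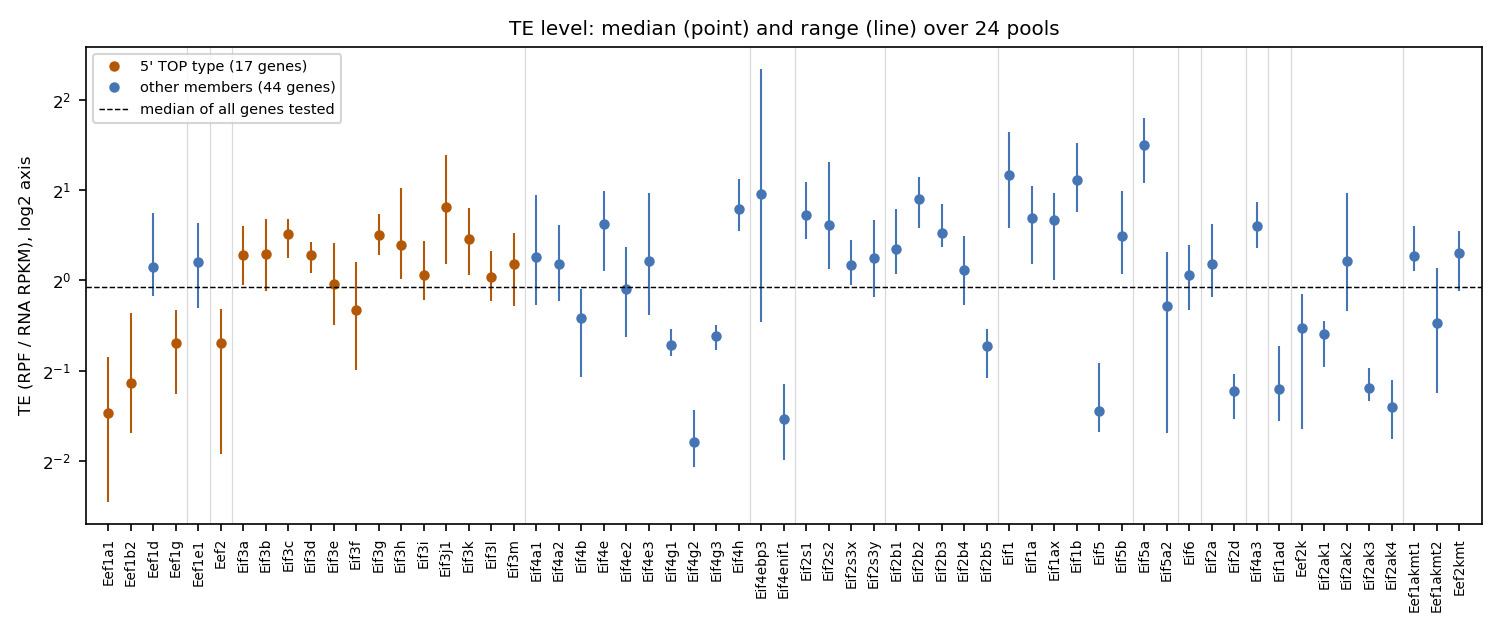
TE of each of the 61 genes on a log2 axis, as the median (point) and the range (line) over 24 pools, in blocks by role, with 5′ TOP type genes in brown and the others in blue. The dashed line is the median of all genes tested. The 4 elongation factors of 5′ TOP type lie below that line and 12 of the 13 eIF3 subunits above it, with Eif4g2 lowest and Eif5a highest.

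The 5′ TOP type list was not uniform in TE level. Its median log2 TE minus that of the other members was −0.05 over the pools (below 0 in 14 of 24), against 1.53 in log2 RNA level. The elongation factors of the list had a median of −0.89 relative to the median gene, and the eIF3 subunits of 0.35. With the elongation factors alone the difference to the other members was −1.14, and with a narrower list (Eef1a1, Eef1b2, Eef1d, Eef1g, Eef2, Eif3e, Eif3f, Eif3h and Eif4b) it was −0.68, in 24 of 24 pools below 0. So the difference turned on which genes were listed, and it is given as a description with no test. The 82 ribosomal protein genes had a median of −0.75, with 42 called below and 3 above the median gene.

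Subunits of a complex are needed in fixed proportion, so their spread was compared between the assays within each pool. For eIF3, the ratio of the highest to the lowest of 13 subunits was 4.11 in RNA and 3.35 in footprints in the median pool, and lower in footprints in 18 of 24 pools. Without Eif3j1, a loosely bound subunit whose coding sequence exists in a near copy, the ratios were 3.2 and 3.26 and footprints were lower in 9 pools. The following complexes were added after these values were seen. For the 3 subunits of eIF2, with the X- and Y-linked genes summed, the ratio ran from 2.08 over 2.35 to 2.64 in RNA and from 1.39 over 1.63 to 1.89 in footprints. For the 3 subunits of eEF1B it ran from 1.98 over 2.45 to 2.89 in RNA and from 1.04 over 1.31 to 1.57 in footprints, and in neither complex did the assays overlap. For the 5 subunits of eIF2B the medians were 3.62 and 2.72, with overlapping ranges and a lower footprint ratio in 24 of 24 pools. Windows shared with other transcripts were also many in these complexes, with 95% in Eif2s3x, 84.3% in Eif2s2, 58.5% in Eif2s1 and 95.2% in Eef1g, and their part in the ratios was not tested. The pools share the same few genes, so the counts of pools are not independent tests. Other sets of genes were not compared, so the ratios do not set these complexes apart.

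Beyond the symbol rule, 26 genes of a list of 29 other genes of translation were tested. Among them were poly(A)-binding proteins, release and recycling factors, 4E-BPs and known 5′ TOP mRNAs. A 24-h component was called in 19 in RNA, 11 in footprints and 9 in TE (73.1%, 42.3% and 34.6%), beside 48.6%, 30.9% and 17.1% of all genes. TE was rhythmic in 6, beside 3.74% of all genes. Tpt1, a 5′ TOP mRNA, had the largest TE fold with 2.81 (peak ZT16.7, adjusted p = 3.96e-05, limma), followed by Tma7 with 2.01 (peak ZT3.7) and Pabpc1, the main poly(A)-binding protein, with 1.83 (peak ZT16.4). Mcts1, a reinitiation factor (1.70, peak ZT7.7), Hnrnpa1 (1.54, peak ZT19.8) and Pabpc4 (1.52, peak ZT18.2) completed the list. Tma7 is among the kidney examples of rhythmic translation that the paper shows from the same data, so its calls are no independent finding. The shares of this list were not tested.

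In RNA, Hnrnpa1 (1.85-fold, peak ZT8.5), Tpt1 (1.80-fold, peak ZT3.6), Eif4ebp2 (1.69-fold, peak ZT6.4), Pdcd4, an inhibitor of eIF4A (1.65-fold, peak ZT7.0), Mcts1 (1.55-fold, peak ZT19.8) and Pabpc1 (1.51-fold, peak ZT5.9) were rhythmic. In footprints, Tpt1 (1.64-fold, peak ZT17.9), Eif4ebp2 (1.63-fold, peak ZT4.5), Rack1, a protein of the small ribosomal subunit (1.62-fold, peak ZT17.1), and Tma7 (1.57-fold, peak ZT3.9) were rhythmic. Eif4ebp1 had a component in RNA alone (1.37-fold, peak ZT8.7, adjusted p = 0.0120, limma).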

How the data were processed

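RNA-seq and RPF-seq libraries of 24 kidney pools were used, 1 table of RPKM values per library. Per the methods and the submitters' processing notes, the authors trimmed reads with cutadapt, mapped them in turn to rRNA, tRNA, mouse cDNA (Bowtie2 2.2.1) and the GRCm38 genome (TopHat2 2.0.11), counted them over coding sequences, normalised by upper quantiles with edgeR and deposited the RPKM values, not corrected for mappable length. A change in total mRNA or total translation is therefore not visible.

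Values were set to log2(RPKM + 0.1), and log2 TE was their difference within a pool. In limma 3.58.1 (R 4.3.3), a moderated F test of 24-h cosine and sine terms over 24 libraries was fitted to all 11863 genes with a median of at least 0.5 RPKM in both assays, and p-values were adjusted by Benjamini-Hochberg over all of them. A component was called at an FDR under 0.05, and a gene was rhythmic if its fitted curve also spanned 1.5-fold or more. TE levels were tested with treat (fold 1.5) after subtracting the median gene of the pool. Depth came from whole reads recovered from the RPKM steps in 99.96% of RNA-seq and 99.91% of RPF-seq genes. The rhythm test was tested on simulated data.

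Symbols matched 12373 of 12423 Ensembl IDs. Members and gene lists were chosen with earlier results of these data known. Named with values were the 5′ TOP type members, those rhythmic in any measure, the 5 highest and 5 lowest in TE, the 4 smallest adjusted p of TE, the kinases and paralogs of these; further genes with a TE call, eIF2B and Eef1d are named as counts or contrast, chosen after their values were seen. Alternatives covered pseudocounts, filters, normalisation, curve shape, model choice and left-out libraries. A start sequence and a marker list are not reported here.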

Additional observations from a re-analysis of the deposited data

How the results depend on the processing

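Most counts of members were kept under the alternatives. Except where noted, the counts below are of members alone, without the share of all genes, so they do not compare members with other genes. Those that moved were the following. An added 12-h harmonic gave 9 members rhythmic in TE. Choice by AIC, which sets no FDR limit, gave 43 members with a 24-h component in footprints and 38 in TE. At an FDR of 0.01, 6 members kept a TE component and 3 a TE rhythm. A test of any shape over the 12 timepoints called 23 members in RNA, 10 in footprints and 1 in TE (0.851% of all genes in TE). A limit of 2-fold in treat left 3 members with high and 7 with low TE. With either replicate left out (12 libraries each), a 24-h component was called in 5 to 18 members in RNA, 6 to 17 in footprints and 0 to 0 in TE, and 3 to 5 were rhythmic in footprints and 0 to 0 in TE (limma, with 18 and 14 members at an unadjusted p under 0.05 in TE). Over all genes, 2 TE calls were left with replicate 1 alone and 0 with replicate 2 alone. RNA calls over all genes were 4144 and 1200 in these replicates, and footprint calls 2074 and 460. The replicates thus differed at equal numbers of libraries, and the part of library number in the lost calls was not tested.

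The 5′ TOP type contrast in log2 TE was −0.68 with the narrower list, −1.14 with the elongation factors alone and −0.15 against the other members without regulators and associated proteins. In log2 RNA it was 1.68 over means, 1.83, 3.78 and 0.77 for the same 3 changes of list. The spread of eIF3 levels, footprints minus RNA, was −0.08 in SD of log2, −0.24 as the log2 ratio of highest to lowest subunit and reversed to 0.024 without Eif3j1. Each shift follows from the list or measure named.

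Equal replicate numbers showed little pairing of the pools on average. Deviations from the timepoint means correlated by 0.03, 0.02 and 0.04 on average in RNA, footprints and TE. In 13, 10 and 12 of 66 pairs of timepoints they correlated by over 0.1, with maxima of 0.48, 0.19 and 0.34. Some timepoints may thus share a replicate effect. With the replicate number as a block, the counts were 36, 3, 23, 5, 18 and 5 (component and rhythm in RNA, footprints and TE). Those for high and low TE were 12 and 11. The footprint component count was 22 without the block. Among 99 values of the genes named by rule, the block changed no call. Other genes whose calls are given in the report were not rechecked. The alternatives without ZT12 replicate 1, without ZT04 replicate 2, with another variance trend and with voom on recovered reads were chosen after seeing the data, and none moved a count by over 1.5 times. For 99 values of named genes, 50 of them called, 693 recomputed values gave 605 on the same side of the threshold (called or not), 84 that lost a call, 4 that gained one and 0 reversed. Depth limited Eif4ebp3, Eef2k, Eif5a2 and Eif4e3 most.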
